A study of Mus musculus with 24 samples.

Results

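Late LPS gene expression was described in wild-type (WT) bone marrow-derived dendritic cells (BMDCs) by comparing the libraries taken 9 h after LPS with those of untreated cells. The libraries were chosen by their labels alone, the 3 WT libraries at 9 h and the 3 WT libraries at 0 h, 6 of the 24 libraries of the series. LPS is a component of the outer membrane of Gram-negative bacteria, and all treated cultures received 10 ng/ml. The cells were differentiated with GM-CSF from the bone marrow of C57BL/6 mice of 9 to 12 weeks, and the WT mice carried no targeted allele. The other 18 libraries were WT cells at 3 and 6 h and TTP-/- cells, which lack the RNA-binding protein tristetraprolin, at all 4 times. Of these the 6 WT libraries at 3 and 6 h were used to place the 9 h levels in time, and no TTP-/- library was used. GM-CSF cultures hold dendritic cells, macrophages and granulocyte precursors at once, and every value is a sum over the whole culture. The libraries are called biological triplicates, without a statement of which came from one animal, culture or day, so that p-values measure the spread between these libraries.

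LPS is sensed by the receptor TLR4 with its co-receptor CD14 and signals through the adaptors MyD88 and TRIF. The MyD88 route activates the transcription factor NF-kB, which induces inflammatory cytokines and chemokines together with its own inhibitors, so that many of these transcripts are made in a pulse. The TRIF route induces type I interferon, which leaves the cell, binds its receptor and drives interferon-stimulated genes in a second wave. In dendritic cells the stimulus also starts maturation, the programme in which cells take up less antigen, present more of it, gain costimulatory ligands and acquire CCR7, the receptor that guides them to lymph nodes.

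The polyadenylated RNA libraries held 22769561 to 25553546 reads assigned to genes at 0 h and 21599393 to 22635572 at 9 h. The FPKM values of each time had been scaled on their own, so whole reads were recovered from them and divided by 1 set of median-of-ratios size factors over the 12 WT libraries. Levels are given in these normalized reads, which can be compared between libraries but, without a correction for gene length, not between genes. The deposited tables held 20005 genes at both times, while 1585 stood only in the 0 h table and 883 only in the 9 h table and were not tested. The dendritic cell markers were detected, and their summed level was 218442 to 280498 normalized reads at 0 h and 395572 to 419357 at 9 h over 15 of 16 genes, led by *Cd74* and *Ccr7*, 14 of which were tested (2 higher, 3 lower). These sums rest on the size factors. After scaling to the library total instead, 1 marker was higher and 4 were lower, and the change of *Cd74* turned slightly negative. The T cell marker *Cd3e* stayed at 0 to 3.42 normalized reads in the 6 libraries. The mast cell, basophil and eosinophil markers summed to 2465 to 2723 at 0 h and 1942 to 2277 at 9 h. Of 9 tested members 2 were lower (22.2%, beside 12.2% of all genes tested). None of the 12 tested mitochondrially encoded transcripts passed both thresholds.

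Of 13723 genes with a mean of at least 10 normalized reads, 1421 (10.4%) were higher and 1672 (12.2%) lower at 9 h, at an adjusted p of at most 0.05 (padj, limma with Benjamini-Hochberg adjustment) and a change of at least 2-fold. Called below are the genes that passed both thresholds. The gene lists were chosen with earlier results of these data known, so that their counts are descriptions and not tests. At padj alone 4013 (29.2%) were higher and 4018 (29.3%) lower, and in 8784 genes (64%) no library of one group overlapped the other group. Log2 fold changes (lfc) are on the scale of log2(normalized reads + 1), which understates changes of genes with few reads. The changes were not spread evenly over levels. Among the 213 genes with a mean of at least 10000 normalized reads the median lfc was 0.61, with 67 higher and 2 lower, whereas among the 4250 genes with 10 to 100 reads it was −0.24, with 416 higher and 887 lower. After scaling to the library total these medians were 0.02 and −0.82. The mean is over all 6 libraries, so that a rise at 9 h itself adds to the level of a gene.

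**Figure D1:**
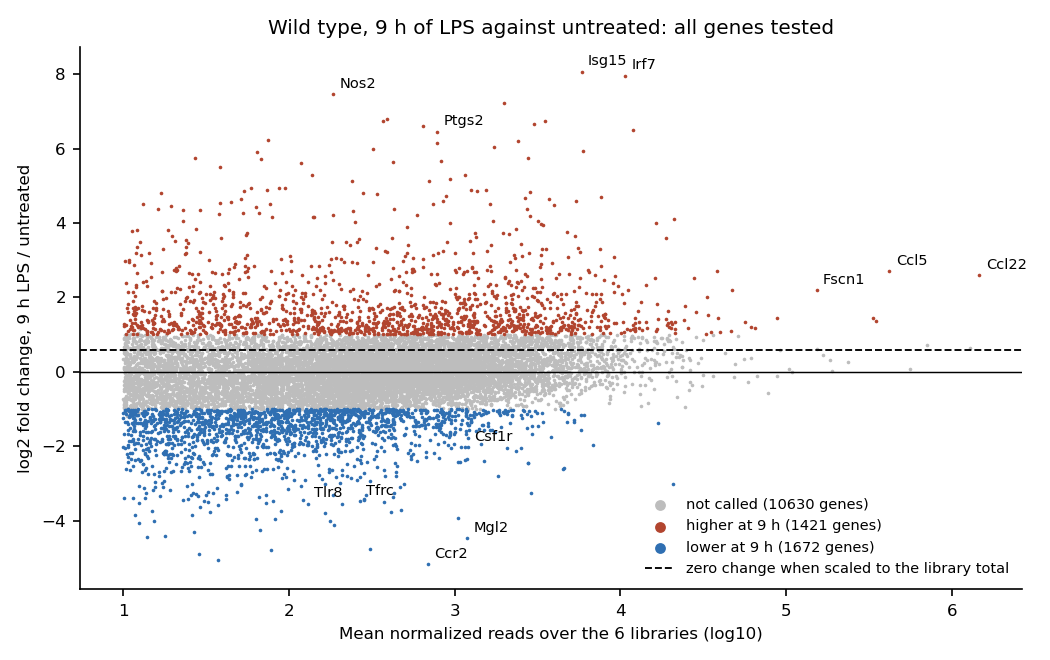
Each point is 1 of 13723 genes, with the mean normalized reads of the 6 libraries (log10) on the x axis and the lfc of 9 h LPS over untreated cells on the y axis. Red points are the 1421 genes called higher and blue points the 1672 called lower, the solid line is zero change, and the dashed line is where zero change would lie after scaling to the library total.

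A few transcripts took up a larger part of the libraries at 9 h, and the split of calls between higher and lower differed between scalings. The 10 most abundant genes held 21.2 to 21.8% of the assigned reads at 0 h and 30.6 to 33.1% at 9 h. The chemokine gene *Ccl22* alone held 2.32, 2.87 and 2.29% at 0 h and 10.6, 9.61 and 9.72% at 9 h. *Ccl5* went from 0.672, 0.714 and 0.630% to 2.84, 3.01 and 2.80%. Scaling to the library total moved the median lfc of all genes by −0.59 and gave 621 higher and 4219 lower, so that 12.8% of the calls were rises against 45.9% with size factors. All 621 of these rises and all 1672 falls of the main fit were among the calls of both scalings. Size factors from genes with at least 1000 reads, an alternative chosen after the data were seen, moved the median by −0.23 and gave 1008 higher and 2375 lower (29.8% rises). The FPKM as deposited moved it by −0.54 and gave 470 higher and 2239 lower (17.3% rises). Small rises are therefore relative to the typical gene, and the lfc after scaling to the library total is given beside the named genes that were called only with size factors.

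**Figure D2:**
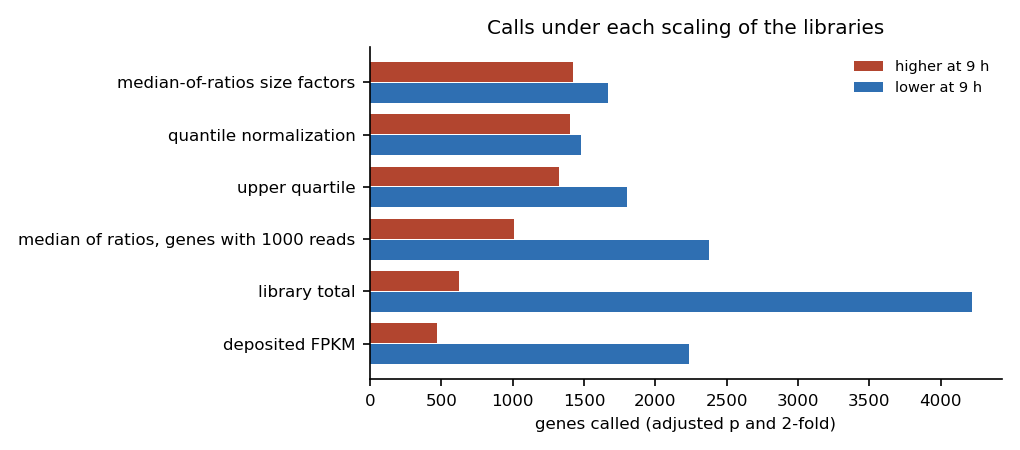
Bars give the number of genes called higher (red) and lower (blue) at 9 h under 6 scalings of the 6 libraries, on an axis that starts at 0. The count of rises goes from 1421 with median-of-ratios size factors to 621 with library totals and 470 with the deposited FPKM, and the count of falls from 1672 to 4219 and 2239.

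Levels at 3 and 6 h showed which of the late changes were past their extreme. Of the 1421 genes called higher, 278 (19.6%) had their highest mean at 3 h, 622 (43.8%) at 6 h and 521 (36.7%) at 9 h. Of the 1672 called lower, 889 (53.2%) had their lowest mean at 9 h. The called genes were chosen by their 9 h level, so that none had its extreme at 0 h. Over all 13723 genes tested the highest mean of the 4 times was at 3, 6 and 9 h in 21.7%, 19.2% and 21.6%. Their lowest mean was at 9 h in 22.0%. Among 3, 6 and 9 h alone the highest was at 3 h in 5253 genes, at 6 h in 3883 and at 9 h in 4587. Compared directly, 544 of 13631 genes (3.99%) were higher and 909 (6.67%) lower at 9 h than at 3 h. That comparison uses the same 9 h libraries as the one with untreated cells. WT replicate 2 at 0 h, replicate 1 at 3 h and replicate 1 at 6 h stood apart from the other libraries of their groups. Without the 0 h replicate 2, 1637 genes were higher and 1767 lower at 9 h than untreated, of which 1387 and 1558 were shared with the main fit. For 9 against 3 h, without the 3 h replicate 1, the counts were 647 higher and 895 lower, of which 482 and 776 were shared with the full comparison. Where an lfc between 9 and 3 h is given below and its call was lost without the 3 h replicate 1, this is stated. The falls of *Tfrc* and *Ptgs2* after 3 h were also among the calls lost (lfc −0.98 and −0.86 without it).

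Interferon-stimulated antiviral genes stood highest among the late rises. All 36 genes of this list were tested, and all 36 were called higher at 9 h with a median lfc of 4.60, beside a median of −0.02 over all genes tested. After scaling to the library total 34 remained called. The highest mean fell at 6 h in 29 of the 36, at 9 h in 6 and at 3 h in 1. Compared directly, 16 were higher and none lower at 9 h than at 3 h. The list was read against the letters of its promoters, because these genes are known targets of the interferon-stimulated response element. Windows from 250 bases before to 50 bases after the RefSeq start were searched on both strands for TTTCNNTTTC, the core of that element. It was present in 15 of the 26 list members that had a window, against 3.99% of all 27025 genes with a window. With 26 of 36 members covered the share is not a measure of the whole list. The following stretches are from 5 raised genes whose windows hold a match and whose values are given here. Of these, *Gbp2* and *Cxcl10* belong to other lists. Coordinates are of the GRCm38.p6 build, bases run in the direction of transcription, and matches are in capitals.
Isg15, chr4:156200850-156200921, minus strand: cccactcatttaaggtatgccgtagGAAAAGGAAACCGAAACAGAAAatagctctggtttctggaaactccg
Ifit3, chr19:34583348-34583441, plus strand: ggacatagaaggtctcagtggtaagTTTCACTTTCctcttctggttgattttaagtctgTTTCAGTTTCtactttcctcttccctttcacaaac
Rsad2, chr12:26456538-26456597, minus strand: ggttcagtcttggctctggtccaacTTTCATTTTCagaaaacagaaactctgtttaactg
Gbp2, chr3:142620579-142620638, plus strand: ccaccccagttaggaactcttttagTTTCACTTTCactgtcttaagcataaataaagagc
Cxcl10, chr5:92349068-92349127, minus strand: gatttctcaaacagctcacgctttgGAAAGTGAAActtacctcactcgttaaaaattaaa
In *Isg15* 3 matches overlap in 1 run, read on the opposite strand, and *Ifit3* holds 2 matches. The window of *Irf7*, the gene with the second largest lfc, holds no match, and neither do those of *Oasl2* and *Ifit2*. A match is a description of the letters and was not tested as a binding site.

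*Isg15*, a ubiquitin-like protein that is joined to other proteins, was at 30.1, 66.3 and 37.3 normalized reads at 0 h and at 11331, 12951 and 10533 at 9 h. The groups were far apart, with an lfc of 8.07 (SE 0.22, limma padj 5.17e-11), the largest rise of all genes tested. *Irf7*, the transcription factor that amplifies interferon production, was at 73.4, 106 and 76.9 at 0 h, at 2669, 2318 and 2544 at 3 h, and at 20617, 21454 and 21503 at 9 h (lfc 7.96, SE 0.13, limma padj 1.39e-12). Its 9 h libraries lay above every earlier WT library, and it was still rising after 3 h (lfc 9 against 3 h 3.08, limma padj 1.03e-06). *Oasl2*, an oligoadenylate synthetase-like protein, was at 276, 252 and 247 at 0 h and at 23599, 22167 and 24815 at 9 h (lfc 6.50, SE 0.10, limma padj 9.12e-13). The sensor of Z-form nucleic acids *Zbp1* went from 537, 602 and 553 to 14580, 14812 and 14615 (lfc 4.70, SE 0.10, limma padj 5.03e-12). Both genes were also above their 3 h level (lfc 2.04 and 2.08), and their 0, 3 and 9 h libraries did not overlap.

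Other members had already turned down. *Rsad2*, the antiviral enzyme viperin, was at 53.7, 51.4 and 70.2 at 0 h, at 13159, 9717 and 10560 at 6 h and at 5632, 6370 and 5937 at 9 h (lfc 6.66, SE 0.13, limma padj 4.21e-12). *Ifit2*, which binds viral RNA, was at 27.5, 23 and 26.1 at 0 h, at 7100, 5754 and 5715 at 6 h and at 4059, 3500 and 4327 at 9 h (lfc 7.22, SE 0.13, limma padj 1.67e-12). In both genes every 9 h library lay below every 6 h library and far above the untreated cells. *Ifit3* was at 3.93, 7.44 and 6.72 at 0 h and at 684, 842 and 685 at 9 h (lfc 6.74, SE 0.22, limma padj 1.79e-10). *Ifit1* was less even at 9 h, with 3954, 1468 and 4735 normalized reads against 43.9, 37.2 and 53.7 (lfc 6.05, SE 0.33, limma padj 1.77e-08). *Stat2*, a transcription factor that carries the interferon signal, went from 1715, 2071 and 1835 to 13812, 13529 and 12871 without overlap (lfc 2.84, SE 0.10, limma padj 5.94e-10). The smallest rises of the list were *Mx1*, a GTPase gene that is not functional in C57BL/6 mice (lfc 1.15, or 0.55 after scaling to the library total), and the nucleotide hydrolase gene *Samhd1* (1.01, or 0.42). *Samhd1* also missed the 2-fold threshold when single libraries were left out. Paralogs such as the Ifit, Oas and Ifi200 genes can share reads, and how such reads were counted is not given in the sources used here, so that values of single members of these families are uncertain.

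The interferon-inducible GTPases, which attack vacuoles of intracellular pathogens, rose in 10 of 13 tested members with none lower and a median lfc of 2.83. After scaling to the library total 7 remained. *Irgm1* was at 400, 400 and 439 at 0 h and at 6255, 6279 and 6573 at 9 h (lfc 3.95, SE 0.10, limma padj 2.08e-11). *Ifi47* went from 285, 271 and 292 to 6323, 7683 and 7264 (lfc 4.64, SE 0.11, limma padj 1.36e-11). The groups did not overlap in either gene, and neither level differed from 3 h by 2-fold. *Gbp2* was later, at 3951, 3803 and 4557 at 0 h, at 4552, 4930 and 5181 at 3 h and at 11247, 13008 and 11970 at 9 h. Its lfc was 1.56 against untreated cells (SE 0.11, limma padj 1.68e-07, or 0.97 after scaling to the library total) and 1.30 against 3 h (limma padj 2.56e-05). Of the 10 members with a promoter window 9 held the TTTCNNTTTC letters, but 10 of 16 is too small a part of the list for a share.

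Inflammatory cytokines remained far above untreated levels at 9 h, although most had a higher mean at 3 or 6 h. Of 19 tested members 16 were higher and none lower, with a median lfc of 3.08, and the same numbers were called after scaling to the library total. Among 3, 6 and 9 h their highest mean was at 3 h in 10, at 6 h in 7 and at 9 h in 2. Compared directly, 2 were higher and 3 lower at 9 h than at 3 h. Some small falls after 3 h rested on the 3 h replicate 1. Without that library the lfc against 3 h turned from −0.30 to 0.23 in *Il1b* and from −0.24 to 0.18 in *Il1rn*, neither of them called. *Tnf* was at 592, 581 and 437 at 0 h, at 36464, 13004 and 8539 at 3 h and at 2312, 2817 and 2816 at 9 h. The 9 h libraries lay between the other times without overlap (lfc against untreated 2.31, SE 0.14, limma padj 3.7e-08). Against 3 h the lfc was −2.59, or −1.998 without the 3 h replicate 1. *Il23a*, a subunit of interleukin-23, also rose and fell, at 2.62, 2.03 and 3.73 at 0 h, at 2194, 884 and 686 at 3 h and at 82.1, 80.9 and 96.8 at 9 h. It was still called higher (lfc 4.55, SE 0.29, limma padj 6.62e-08) and fell by 3.66 on the log2 scale after 3 h.

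*Il12b*, the subunit that interleukin-12 and interleukin-23 share, was past its highest level and still well above untreated cells. It was at 2904, 2606 and 3229 at 0 h, at 70029, 57363 and 55142 at 6 h and at 34092, 36974 and 33593 at 9 h (lfc 3.59, SE 0.11, limma padj 1.17e-10), with no overlap between these times. *Il6* went from 288, 161 and 317 to 4954, 4230 and 6346 (lfc 4.37, SE 0.22, limma padj 9.12e-09), and the inflammasome substrate *Il1b* from 637, 581 and 623 to 5167, 6770 and 6352 (lfc 3.30, SE 0.12, limma padj 4.59e-10). *Ebi3*, which pairs with other subunits to form interleukin-27 and interleukin-35, rose from 1740, 2312 and 1790 to 16388, 17009 and 15503 (lfc 3.08, SE 0.12, limma padj 1.01e-09). All 9 h libraries of these genes were above all untreated ones. *Il1rn*, the antagonist of the interleukin-1 receptor, had an lfc of 0.87 (limma padj 5.26e-05) and missed the 2-fold threshold. *Osm* was later than these, and was higher at 9 h (551, 510 and 407) than in every 3 h library (312, 197 and 162), with an lfc of 1.72 against untreated cells (135, 167 and 140; SE 0.15, limma padj 1.16e-06).

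The chemokines split into transcripts that accumulated and transcripts that had passed their peak. Of 18 tested members 14 were higher and none lower, with a median lfc of 2.67, and after scaling to the library total 12 were higher and 2 lower. Among 3, 6 and 9 h the highest mean was at 3 h in 11, at 6 h in 1 and at 9 h in 6. Compared directly, 2 members were higher and 5 lower at 9 h than at 3 h. *Ccl5*, which draws T cells, was at 112532, 117355 and 107050 at 0 h, at 264899, 366585 and 345141 at 3 h and at 704304, 791131 and 689200 at 9 h. The libraries of the 3 times did not overlap, and the lfc was 2.70 against untreated cells (SE 0.14, limma padj 9.87e-09) and 1.17 against 3 h (limma padj 0.00092). *Ccl22*, a ligand of CCR4, had the read shares given above and an lfc of 2.60 (SE 0.17, limma padj 8.49e-08). *Ccl17*, the other CCR4 ligand, had an lfc of 1.20 (SE 0.13, limma padj 9.55e-06, or 0.61 after scaling to the library total). The monocyte chemoattractant *Ccl7* was still low at 3 h (63.7, 22 and 12.0 against 32.8, 21.6 and 18.7 at 0 h) and stood at 123, 150 and 199 at 9 h, above every library of both (lfc 2.65, SE 0.24, limma padj 1.92e-06).

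The neutrophil chemoattractants *Cxcl1* and *Cxcl2* took the opposite course after 3 h. *Cxcl1* was at 69.4, 45.3 and 72.4 at 0 h, at 9286, 5888 and 5493 at 3 h and at 1449, 1382 and 1445 at 9 h. *Cxcl2* was at 330, 331 and 260, at 41283, 13406 and 8835, and at 4263, 4357 and 4595. For both genes the 9 h libraries lay between the other times, with lfc of 4.52 and 3.85 against untreated cells (SE 0.17 and 0.12, limma padj 6.45e-10 and 1.17e-10) and of −2.23 and −1.95 against 3 h, or −1.996 and −1.31 without the 3 h replicate 1. *Ccl4* behaved alike, at 198, 217 and 96.3, 20668, 5670 and 3708, and 1519, 1748 and 1343 (lfc 3.24, SE 0.24, limma padj 3.26e-07). *Cxcl10*, the interferon-induced ligand of CXCR3 whose promoter letters are printed above, was at 67.5, 52.7 and 72.4 at 0 h and at 4885, 4588 and 4887 at 9 h, the highest lfc of the chemokines (6.21, SE 0.13, limma padj 5.19e-12).

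NF-kB subunits and feedback inhibitors were higher in 11 of 21 tested members and lower in none, with a median lfc of 1.13, and 5 remained after scaling to the library total. Because *Cxcl1*, *Cxcl2* and the inhibitor genes are textbook targets of NF-kB, the same windows were searched on both strands for GGGNNTTTCC. The letters occurred in 5 of the 18 members of this list with a window (27.8%), against 1.89% of all genes with a window. The stretches below show the matches in capitals for 2 chemokines and 2 inhibitors that were past their peak at 9 h.
Cxcl1, chr5:90891131-90891208, plus strand: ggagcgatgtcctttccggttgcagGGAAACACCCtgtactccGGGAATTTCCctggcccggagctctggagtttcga
Cxcl2, chr5:90903777-90903855, plus strand: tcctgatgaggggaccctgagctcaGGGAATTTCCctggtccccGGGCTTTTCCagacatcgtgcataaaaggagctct
Nfkbia, chr12:55492642-55492701, minus strand: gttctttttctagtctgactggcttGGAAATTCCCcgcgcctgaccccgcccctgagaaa
Tnfaip3, chr10:19015388-19015447, minus strand: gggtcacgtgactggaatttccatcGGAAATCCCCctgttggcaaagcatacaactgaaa
The 2 chemokine promoters each hold 2 matches, and those of the inhibitors 1 each.

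*Tnfaip3*, the ubiquitin-editing enzyme A20, was at 2822, 3020 and 3211 at 0 h, at 20905, 20773 and 20998 at 3 h and at 6997, 6363 and 6482 at 9 h. It remained above untreated cells without overlap (lfc 1.13, SE 0.10, limma padj 1.36e-06, or 0.54 after scaling to the library total) and fell by 1.66 on the log2 scale after 3 h. *Nfkbiz*, which encodes a nuclear IkB protein that helps to induce secondary genes, was at 321, 301 and 316 at 0 h, at 9355, 8317 and 7857 at 3 h and at 2199, 1969 and 1968 at 9 h (lfc 2.70, SE 0.11, limma padj 1.01e-09). *Nfkbia*, the inhibitor that holds NF-kB in the cytoplasm, went from 6248, 6988 and 6411 to 19438, 16797 and 17190 (lfc 1.44, SE 0.10, limma padj 2.52e-07, or 0.85 after scaling to the library total). These 3 were lower at 9 h than in any 3 h library. The cytokine signalling inhibitor *Socs3* rose from 297, 389 and 228 to 2994, 2733 and 2764 (lfc 3.24, SE 0.16, limma padj 8.25e-09). *Zfp36*, the gene of TTP itself, was at 8462, 8051 and 8478 at 0 h and at 11936, 13912 and 13293 at 9 h, without overlap and below the 2-fold threshold (lfc 0.64, SE 0.10, limma padj 0.000178). An lfc of this size is close to the shift of −0.59 that scaling to the library total gave the median of all genes. Against 3 h the lfc of *Zfp36* was 0.88, also below 2-fold.

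Among the immediate-early genes, which respond to a stimulus without new protein synthesis, 7 of 22 tested members were higher and 5 lower at 9 h. *Egr1*, a zinc finger transcription factor, was at 101, 123 and 67.2 at 0 h, at 412, 375 and 359 at 3 h and at 25.2, 11.7 and 18.2 at 9 h, so that its late level lay below the untreated one (lfc −2.36, SE 0.30, limma padj 2.66e-05). *Klf4* went from 103, 114 and 87.3 to 23, 24.6 and 36.5 (lfc −1.84, SE 0.22, limma padj 1.79e-05), and *Klf2*, *Egr2* and *Egr3* were also called lower (lfc −1.60, −1.59 and −2.18). *Dusp2*, a nuclear phosphatase that acts on MAP kinases, fell back from 1731, 1573 and 1505 at 3 h to 314, 356 and 338 at 9 h, still above 24.9, 34.5 and 28.4 in untreated cells (lfc 3.49, SE 0.17, limma padj 6.01e-09). *Dusp1*, a related phosphatase, was by contrast higher at 9 h (7685, 8118 and 6890) than at 3 h (3016, 2811 and 2791) or 0 h (1710, 1951 and 1641), with an lfc of 2.10 (SE 0.11, limma padj 1.13e-08).

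**Figure D3:**
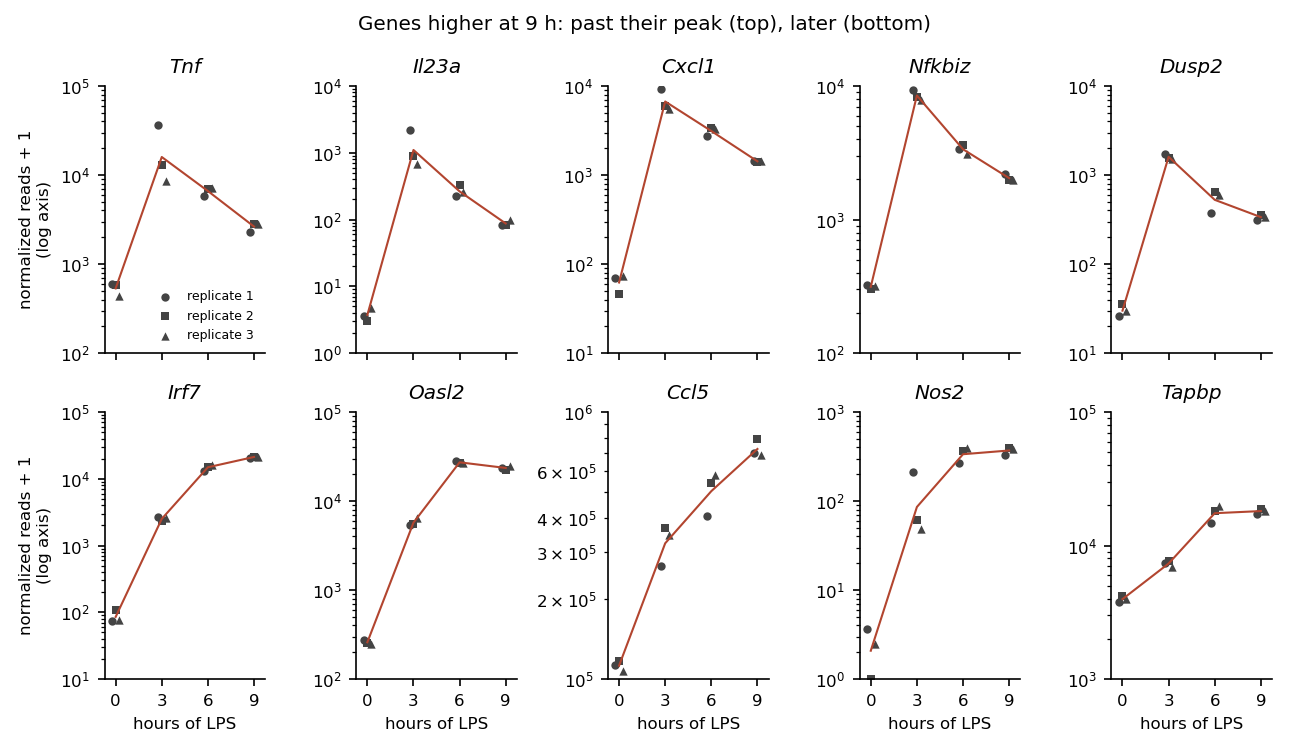
Each panel gives 1 gene in the 12 WT libraries, with hours of LPS on the x axis, normalized reads + 1 on a log y axis, the 3 replicates as separate symbols and a line through the geometric means. In the upper row *Tnf*, *Il23a*, *Cxcl1*, *Nfkbiz* and *Dusp2* are lower at 9 h than at 3 h, and in the lower row *Irf7*, *Oasl2*, *Ccl5*, *Nos2* and *Tapbp* are higher at 9 h than at 3 h.

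Most genes of dendritic cell maturation were up at 9 h. Of 20 tested members of this list 14 were higher and none lower, with a median lfc of 1.44, and 8 remained after scaling to the library total. *Fscn1*, the actin-bundling protein fascin of mature dendritic cells, was at 47521, 67341 and 50846 at 0 h and at 249823, 279066 and 224585 at 9 h (lfc 2.20, SE 0.15, limma padj 1.82e-07). The costimulatory receptor gene *Cd40* rose from 1489, 1826 and 1755 to 9685, 10174 and 9238 (lfc 2.52, SE 0.11, limma padj 2.13e-09). Neither group overlapped the other. The 4-1BB ligand gene *Tnfsf9* was at 204, 224 and 176 at 0 h and at 2826, 2221 and 2370 at 9 h (lfc 3.61, SE 0.13, limma padj 5.43e-10), down from 7032, 8248 and 7460 at 3 h. *Ccr7* had the reverse time course, at 41097, 54893 and 47877 at 0 h, at 58634, 66216 and 62668 at 3 h and at 127770, 135121 and 122942 at 9 h. Its lfc was 1.43 against untreated cells (SE 0.13, limma padj 2.01e-06, or 0.84 after scaling to the library total) and 1.04 against 3 h, or 0.996 and so just under 2-fold without the 3 h replicate 1. *Cd86* and *Cd80*, the ligands of CD28, had lfc of 1.43 and 1.44 (limma padj 1.55e-06 and 5.29e-07), or 0.83 and 0.85 after scaling to the library total.

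Most class I antigen presentation genes were higher at 9 h than in untreated cells. Of 15 tested members 11 were higher and none lower (median lfc 1.63), and 8 remained after scaling to the library total. In 10 the mean at 9 h was higher than at 3 and 6 h. Compared directly, 3 of 15 were called higher and none lower at 9 h than at 3 h. *Tapbp*, the chaperone tapasin that helps to load peptides, was at 3769, 4180 and 3969 at 0 h, at 7417, 7633 and 6961 at 3 h and at 17360, 18841 and 18152 at 9 h. The 3 times were apart from each other, with an lfc of 2.19 against untreated cells (SE 0.10, limma padj 3.31e-09) and of 1.30 against 3 h (limma padj 1.89e-05). The immunoproteasome subunits *Psmb9* and *Psmb10* were called higher than both untreated cells (lfc 1.96 and 2.17) and 3 h cells (1.02 and 1.13). *Nlrc5*, the transactivator of class I genes, rose from 841, 996 and 881 to 4358, 3923 and 4194 (lfc 2.20, SE 0.11, limma padj 6.01e-09). *H2-D1* had an lfc of 1.35 (limma padj 2.9e-06, or 0.76 after scaling to the library total), while *H2-K1* had 0.81 and the light chain *B2m* 0.60 and were not called.

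Of 13 tested class II presentation genes 1 was higher (7.69%) and 2 were lower (15.4%), with a median lfc of 0.45. These shares are close to the 10.4% and 12.2% of all genes tested. The invariant chain *Cd74* was at 126348, 170938 and 129179 at 0 h and at 188664, 194224 and 195863 at 9 h, an lfc of 0.45 that turned to −0.14 after scaling to the library total. *H2-Aa* likewise had 0.33, or −0.26. The direction of these class II transcripts thus depended on the scaling. The falls did not: *March1*, a ubiquitin ligase that removes class II molecules from the surface of resting cells, went from 641, 452 and 496 to 143, 134 and 212 (lfc −1.71, SE 0.19, limma padj 7.82e-06), and the lysosomal thiol reductase *Ifi30* from 6258, 6220 and 6120 to 2770, 3068 and 3057 (lfc −1.07, SE 0.10, limma padj 1.67e-06). Both stayed lower after scaling to the library total.

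The genes of LPS sensing changed in both directions, with 5 of 25 tested Toll-like receptor pathway members higher and 3 lower and a median lfc of 0.02. The 3 falls are a share close to the 12.2% of all genes tested, and after scaling to the library total 2 members were higher and 7 lower. *Tlr4*, the LPS receptor, was at 1003, 752 and 877 at 0 h, at 274, 166 and 190 at 3 h and at 211, 178 and 222 at 9 h (lfc −2.10, SE 0.14, limma padj 1.07e-07). It had fallen by 3 h and was still low at 9 h. The endosomal single-stranded RNA receptor *Tlr8* fell from 318, 191 and 208 to 15.3, 16.4 and 27.3 (lfc −3.55, SE 0.25, limma padj 2.05e-07). The flagellin receptor *Tlr5* was at 22.3, 18.9 and 26.1 at 0 h and at 3.28, 0 and 0 at 9 h. In contrast, the double-stranded RNA receptor *Tlr3* rose from 48.5, 35.8 and 32.1 to 158, 191 and 191 (lfc 2.20, SE 0.19, limma padj 1.16e-06). *Myd88* was called higher (lfc 1.59, limma padj 3.59e-07), as were *Cd14* and *Ticam1*, the gene of TRIF, which had lfc of 1.22 and 1.19, or 0.62 and 0.59 after scaling to the library total.

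Many receptors of antigen uptake were lower at 9 h. Of 22 tested endocytic and phagocytic receptors 14 were lower and 3 higher, with a median lfc of −1.24. *Mgl2*, a C-type lectin that binds galactose-type sugars, was at 2565, 2456 and 1796 at 0 h, at 1389, 486 and 309 at 3 h and at 85.3, 124 and 94.6 at 9 h (lfc −4.47, SE 0.17, limma padj 7.3e-10). The mannose receptor *Mrc1* went from 176, 137 and 138 to 4.38, 3.52 and 5.70 (lfc −4.78, SE 0.25, limma padj 1.11e-08). Both kept falling after 3 h, with lfc of −2.56 and −3.07 between 3 and 9 h, or −1.94 and −2.47 without the 3 h replicate 1. *Clec4n*, which encodes the fungal mannan receptor Dectin-2, was at 8880, 7478 and 6751 at 0 h and at 1019, 1408 and 1330 at 9 h (lfc −2.62, SE 0.14, limma padj 1.41e-08). *Itgam*, the complement receptor subunit CD11b, fell from 4090, 4082 and 3317 to 954, 898 and 787 (lfc −2.12, SE 0.12, limma padj 2.48e-08). *Cd209a*, a lectin related to human DC-SIGN, was at 27.5, 30.4 and 24.6 at 0 h and at 0, 1.17 and 0 at 9 h. The exceptions that rose were *Axl*, a receptor through which apoptotic cells are cleared (4464, 4334 and 3528 to 11053, 12122 and 11906, lfc 1.52, SE 0.11, limma padj 3.18e-07, or 0.92 after scaling to the library total), the scavenger receptor *Marco* (3.93, 2.70 and 5.22 to 52.5, 43.4 and 35.3, lfc 3.19, SE 0.32, limma padj 4.41e-06) and the Fc receptor *Fcgr4* (lfc 1.53, or 0.99).

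Markers of macrophages and most called neutrophil markers were also lower. Of 11 tested macrophage markers 6 were lower and 1 higher, and their summed level was 5792 to 7492 normalized reads at 0 h and 3666 to 3884 at 9 h. *Cd68*, a lysosomal protein of macrophages, went from 1596, 1569 and 1111 to 434, 449 and 480 (lfc −1.63, SE 0.14, limma padj 1.17e-06). Of 15 tested neutrophil markers 7 were lower and 2 higher, and they summed to 11212 to 12971 at 0 h and 6802 to 8489 at 9 h. *Mmp8*, a collagenase of neutrophil granules, fell from 3768, 2817 and 2937 to 430, 508 and 418 (lfc −2.80, SE 0.13, limma padj 5.09e-09), and *S100a8* from 1973, 1158 and 2174 to 286, 386 and 287 (lfc −2.43, SE 0.21, limma padj 9.85e-07). The neutrophil markers called higher were the iron-binding protein gene *Lcn2* and the surface marker gene *Ly6g* (lfc 1.24 and 1.13, or 0.65 and 0.55 and not called after scaling to the library total). The 13 B, T and NK cell markers in the tables summed to only 246 to 289 normalized reads at 0 h and 369 to 502 at 9 h. Fewer cells of a type and less RNA per cell cannot be told apart in these libraries, and the part of the marker genes in the receptor falls was not tested.

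Some receptors that draw cells from blood into inflamed tissue or pass growth factor signals were low at 9 h. Of 21 tested members of this list 7 were lower and 3 higher, with a median lfc of 0.03. *Ccr2*, the receptor for *Ccl2* and *Ccl7*, had the largest fall of all tested genes. It was at 1579, 1195 and 1270 at 0 h, at 178, 72.6 and 51.1 at 3 h and at 35.0, 27.0 and 49.0 at 9 h (lfc −5.18, SE 0.20, limma padj 7.69e-10). The 9 h libraries lay below all earlier ones, but the call between 3 and 9 h (lfc −1.26) was lost without the 3 h replicate 1 (−0.75). *Csf1r*, the receptor for the macrophage growth factor M-CSF, went from 1962, 2266 and 1585 to 460, 484 and 461 (lfc −2.03, SE 0.13, limma padj 8.21e-08), while the gene of its ligand, *Csf1*, rose from 419, 482 and 370 to 1709, 1838 and 1564 (lfc 2.01, SE 0.12, limma padj 5.27e-08). *Ccr1* was also called lower (lfc −1.79). *Cxcr4*, the receptor that retains cells in bone marrow, was at 2764, 2502 and 2824 at 0 h, at 301, 405 and 433 at 3 h and at 1305, 1248 and 1213 at 9 h, a fall that had partly returned (lfc −1.10 against 0 h, SE 0.10, limma padj 1.81e-06, and 1.74 against 3 h, limma padj 3.96e-05). *Ccrl2*, an atypical receptor that holds chemerin, rose from 175, 178 and 206 to 886, 891 and 914 (lfc 2.26, SE 0.12, limma padj 1.1e-08).

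Some of the largest falls lay outside these lists or started only after 3 h. *Il18r1*, a chain of the interleukin-18 receptor, was at 581, 619 and 594 at 0 h, at 360, 412 and 491 at 3 h and at 18.6, 21.1 and 23.9 at 9 h (lfc −4.76, SE 0.15, limma padj 1.65e-10, and −4.24 against 3 h, limma padj 1.56e-06). *Dscam*, a cell adhesion molecule of the immunoglobulin superfamily, was not yet lower at 3 h (367, 361 and 361, beside 310, 307 and 311 at 0 h) and stood at 23, 18.8 and 22.8 at 9 h (lfc −3.79, SE 0.16, limma padj 2.26e-09). In both genes the 9 h libraries were far below those of 0 and 3 h. The transferrin receptor *Tfrc*, which takes up iron, fell earlier, from 548, 466 and 465 to 164, 100 and 74.0 at 3 h and 44.9, 42.2 and 42.2 at 9 h (lfc −3.48, SE 0.14, limma padj 1.36e-09). The tight junction gene *Cldn1* went from 2197, 1767 and 1957 to 125, 118 and 144 (lfc −3.93, SE 0.13, limma padj 1.68e-10). *Cd200r1*, an inhibitory receptor of myeloid cells, was at 598, 488 and 471 at 0 h and at 42.7, 42.2 and 54.7 at 9 h (lfc −3.45, SE 0.16, limma padj 4.43e-09), whereas the gene of its ligand *Cd200* rose from 2492, 2270 and 2942 to 10489, 10956 and 11284 (lfc 2.09, SE 0.11, limma padj 1.55e-08).

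**Figure D4:**
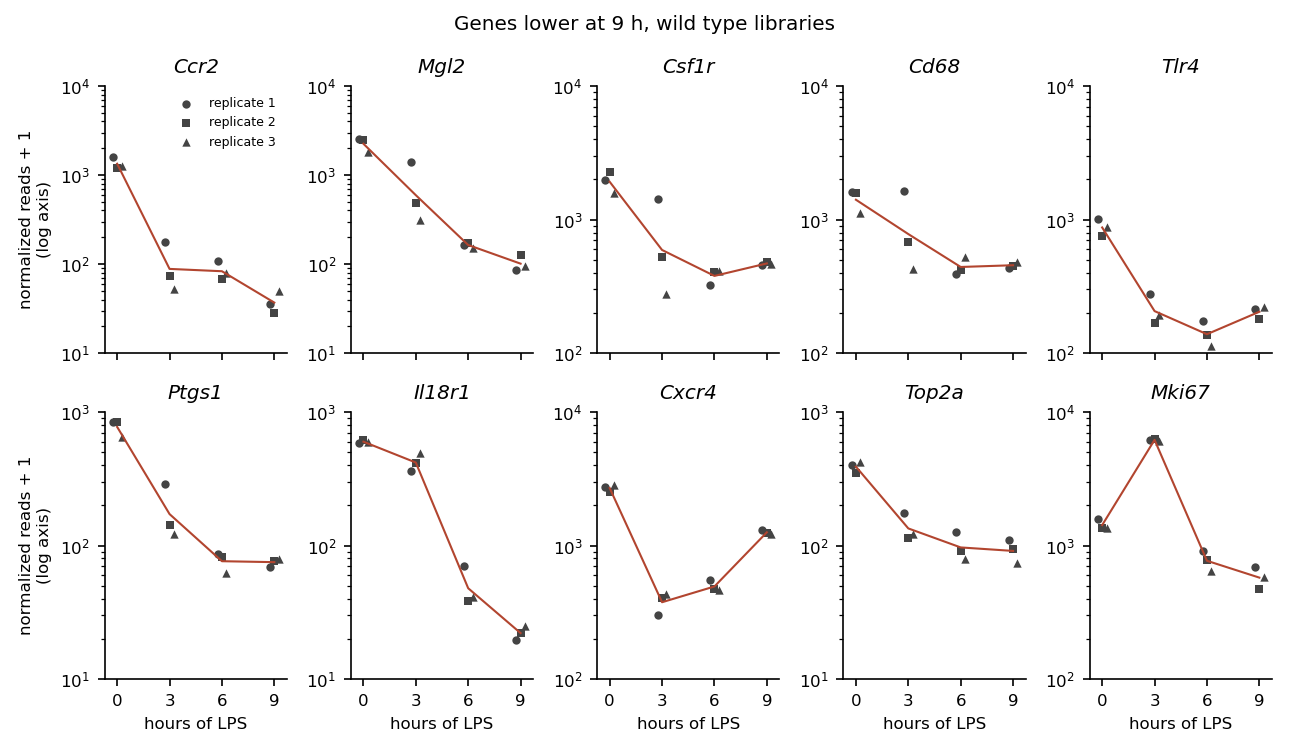
Each panel gives 1 gene in the 12 WT libraries, with hours of LPS on the x axis, normalized reads + 1 on a log y axis, the 3 replicates as separate symbols and a line through the geometric means. *Ccr2*, *Mgl2*, *Csf1r*, *Cd68*, *Tlr4*, *Ptgs1* and *Top2a* already have lower means at 3 h, *Il18r1* drops mainly after 3 h, *Cxcr4* partly returns between 3 and 9 h (lfc 1.74), and *Mki67* is higher at 3 h than at any other time.

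Most mitosis transcripts and some of DNA replication were lower at 9 h. Of 20 tested mitosis genes 14 were lower and none higher (median lfc −1.35), and of 22 DNA replication genes 8 were lower and 1 higher (median −0.87). After scaling to the library total the falls were 17 in mitosis and 16 in DNA replication, with none higher. Many promoters of mitosis genes hold the cell cycle genes homology region, whose core is TTTGAA. These letters, searched on both strands, were present in 11 of the 16 mitosis genes with a window (68.8%, out of 20). The share over all genes with a window was 20.2%. They are shown in capitals for 2 of the called genes, *Top2a* and *Kif11*.
Top2a, chr11:99024182-99024393, minus strand: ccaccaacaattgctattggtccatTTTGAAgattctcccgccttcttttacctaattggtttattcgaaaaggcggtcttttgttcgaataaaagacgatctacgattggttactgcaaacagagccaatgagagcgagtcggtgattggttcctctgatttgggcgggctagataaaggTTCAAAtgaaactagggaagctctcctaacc
Kif11, chr19:37376338-37376393, plus strand: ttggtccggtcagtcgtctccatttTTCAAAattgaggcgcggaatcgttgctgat
*Top2a*, the topoisomerase that untangles DNA before division, was at 402, 348 and 420 at 0 h and at 108, 92.6 and 72.9 at 9 h (lfc −2.10, SE 0.16, limma padj 4.67e-07). *Kif11*, a motor of the mitotic spindle, went from 181, 134 and 164 to 12.0, 25.8 and 29.6 (lfc −2.86, SE 0.29, limma padj 4.07e-06). Both groups were apart in both genes. *Rrm2*, which makes deoxynucleotides, fell from 385, 358 and 346 to 37.2, 50.4 and 46.7 (lfc −3.00, SE 0.16, limma padj 1.27e-08), and the replication helicase and nuclease *Dna2* from 447, 380 and 334 to 25.2, 28.1 and 45.6 (lfc −3.55, SE 0.22, limma padj 4.52e-08). *Tyms*, which makes thymidylate, was the member that rose, from 425, 406 and 439 to 1079, 1403 and 1249 (lfc 1.55, SE 0.12, limma padj 4.61e-07, or 0.95 after scaling to the library total). The number of dividing cells was not measured.

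Enzymes that make inflammatory mediators changed in both directions. The inducible cyclooxygenase *Ptgs2* was at 16.4, 16.9 and 15.7 at 0 h, at 9213, 3179 and 2397 at 3 h and at 1718, 1095 and 1855 at 9 h (lfc 6.45, SE 0.19, limma padj 7.98e-11). The constitutive cyclooxygenase *Ptgs1* was at 836, 847 and 649 at 0 h and at 67.8, 76.2 and 78.6 at 9 h (lfc −3.36, SE 0.14, limma padj 2.13e-09). The groups of each gene lay far apart in opposite directions. The thromboxane synthase *Tbxas1* and the leukotriene pathway genes *Alox5ap*, *Lta4h* and *Alox5* were also called lower (lfc −2.52, −1.67, −1.19 and −1.08), which with *Ptgs1* made 5 of 12 tested members, against 2 higher. *Nos2*, the inducible nitric oxide synthase, was at 2.62, 0 and 1.49 at 0 h, at 212, 59.4 and 47.9 at 3 h and at 329, 396 and 383 at 9 h. It rose further after 3 h (lfc 2.11, or 2.76 without the 3 h replicate 1), and its lfc against untreated cells of 7.47 (SE 0.39, limma padj 1.11e-08) rests on 0 h libraries near 0 and depends on the pseudocount. *Acod1*, which makes itaconate, rose from 546, 553 and 408 to 3779, 3839 and 3885 (lfc 2.94, SE 0.13, limma padj 2.13e-09). *Arg1*, an arginase that competes with nitric oxide synthase for arginine, was low throughout, at 36.7, 36.5 and 19.4 at 0 h and 3.28, 2.34 and 6.84 at 9 h (lfc −2.67, SE 0.41, limma padj 0.00013).

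The metabolic and lysosomal lists differed from each other, beside shares of 10.4% higher and 12.2% lower over all genes tested. Of 19 tested glycolysis genes 4 were higher and none lower (median lfc 0.38), among them the hexokinase *Hk2* (lfc 1.51, or 0.92 after scaling to the library total) and the glucose transporter *Slc2a6* (1.61). After scaling to the library total 1 was higher and 2 were lower, so that the direction of this list depended on the scaling. Of 18 citric acid cycle genes 2 were lower (6 after scaling to the library total), *Idh1* (lfc −1.02) and *Idh2* (−1.97). Their share of 11.1% is close to that of all genes tested. Sterol synthesis genes were lower in 4 of 18 (8 after scaling to the library total), including the squalene epoxidase *Sqle*, which went from 676, 690 and 740 to 325, 328 and 316 without overlap (lfc −1.12, SE 0.11, limma padj 3.32e-06). Of 11 genes of sterol efflux and liver X receptor targets 3 were higher and 4 lower. The falls were the lipid exporter *Abca1* (lfc −1.49), *Apoe* (−2.005) and the desaturases *Scd1* and *Scd2* (−1.68 and −1.97), while the oxysterol-forming enzyme *Ch25h* rose from 66.8, 69.6 and 41.8 to 209, 183 and 208 (lfc 1.77, SE 0.20, limma padj 1.05e-05). Among 25 tested lysosomal genes 4 were higher and 5 lower, and after scaling to the library total none was higher and 13 were lower. The transcription factors of dendritic cells also diverged: *Irf8* rose from 8574, 10619 and 9419 to 27374, 32762 and 28007 (lfc 1.62, SE 0.12, limma padj 2.55e-07), and *Spib* fell from 1701, 1920 and 1801 to 337, 348 and 327 (lfc −2.42, SE 0.11, limma padj 2.54e-09).

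**Figure D5:**
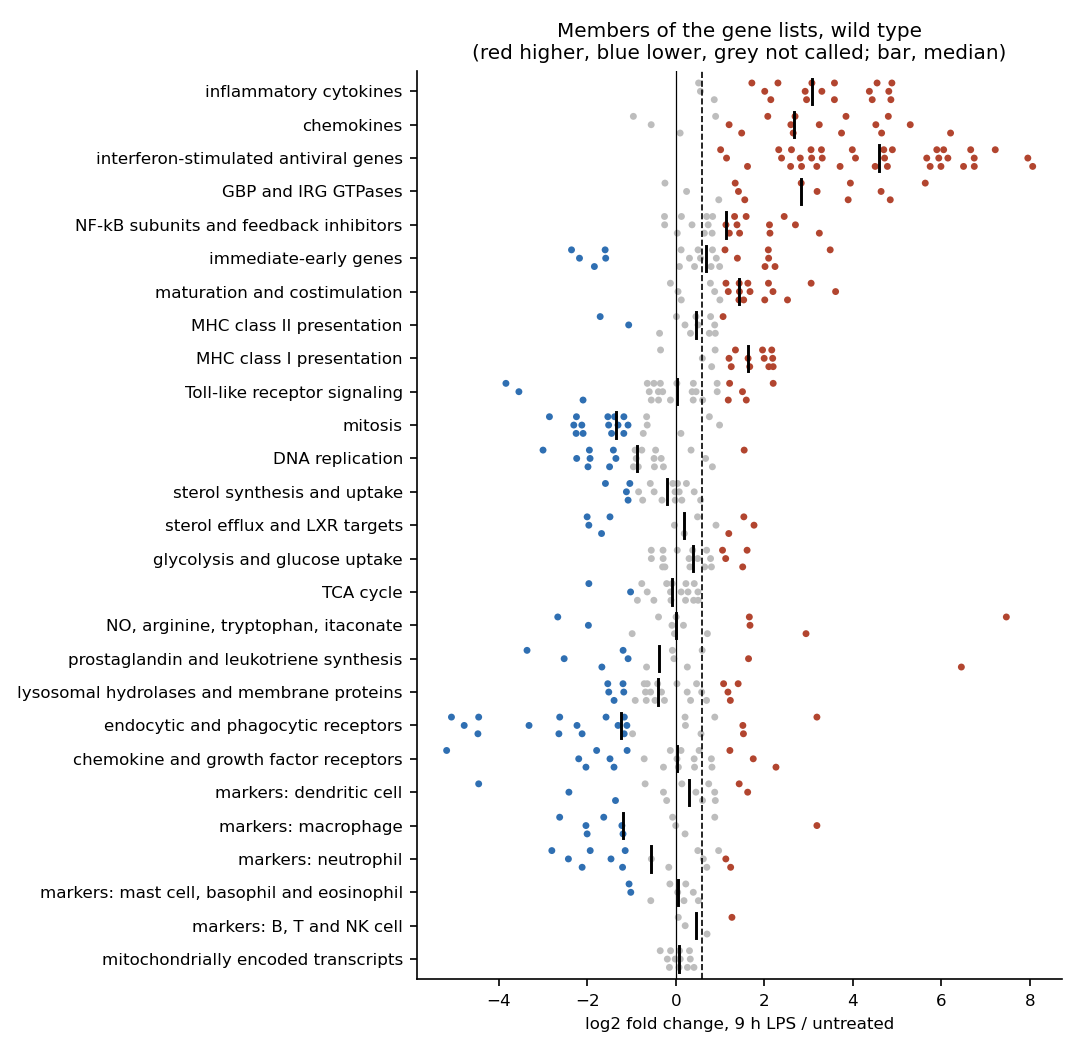
Each row is a gene list and each point 1 tested member, with the lfc of 9 h LPS over untreated cells on the x axis, red for called higher, blue for called lower, grey for not called, and a bar at the median. The solid line is zero change and the dashed line zero change after scaling to the library total. The median is 4.60 for interferon-stimulated antiviral genes, −1.24 for endocytic and phagocytic receptors and −1.35 for mitosis.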

How the data were processed

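RNA was taken from BMDCs before and 3, 6 and 9 h after LPS, and polyadenylated RNA was sequenced as single-end reads. Per the submitters' processing notes the authors used cutadapt, FastQC, STAR 2.5, DESeq2 and the GRCm38 (mm10) build; the counting tool and its strand setting are not given in the sources used here. The FPKM deposited by the authors are scaled within the 6 libraries of each time. The mean signal deposited by the authors is the mean of size-factor-scaled read counts over those 6 libraries. The log2 fold changes, p-values and score deposited by the authors compare TTP-/- with WT cells at 1 time each and were not used. No column of per-library values was left unmapped.

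FPKM and the mean signal together gave whole reads: all values lay within 0.05 of a whole number. Of 23394 gene IDs, 16855 took their name from the tables, 6284 from GENCODE and 255 had none. Reads were divided by 1 set of median-of-ratios size factors over the 12 WT libraries. Genes with a mean of at least 10 normalized reads over the 6 libraries compared were fitted on log2(value + 1) with limma 3.58.1 (R 4.3.3, mean-variance trend), with Benjamini-Hochberg adjustment over all genes tested. A gene was called at an adjusted p of at most 0.05 and an absolute log2 fold change of at least 1, which is 2-fold. The same fit compared 9 with 3 h. Gene lists were described by counts and medians. An exact permutation test of a single gene with 3 against 3 libraries gives no p below 0.1 and was therefore not used for calls. The steps were tested on simulated reads.

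Named were the 15 largest rises and 15 largest falls among called genes with at least 200 normalized reads in the higher group and no overlap between the libraries, and any list member. The gene lists and their members were chosen with earlier results of these data known. Alternatives were other scalings, pseudocounts and filters, voom, treat, robust variances, other thresholds, 1 fit of the 12 WT libraries, the replicate number as a block, and leaving out each library. Promoter windows and their coordinates are from RefSeq tables of GRCm38.p6 and were matched by gene symbol. Some genes are not reported here.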

Additional observations from a re-analysis of the deposited data

How the results depend on the processing

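Of the 207 genes of the lists and the naming rule whose values were followed through 23 alternatives, 4532 values kept direction and call, 165 kept only their direction, 27 became called and 7 reversed. The reversals were *Cd74* (−0.14 with library totals, −0.11 with quantile normalization, −0.13 with deposited FPKM), *H2-Aa* (−0.26 under each of these) and *B2m* (−0.18 with quantile normalization), none of them called before. The counts of genes higher and lower at 9 h than untreated were 621 and 4219 with library totals, 470 and 2239 with deposited FPKM plus 0.1, 1005 and 785 with a minimum mean of 100 reads, 4013 and 4018 at adjusted p alone, and 695 and 584 with treat, which tests against a 2-fold change. The filter, treat and the threshold alter what is counted by construction; for the scalings the growing read share of the top genes is given in the report and the cause was not tested. With size factors from genes with 1000 reads they were 1008 and 2375. Leaving out each library gave 1374 to 1637 higher and 1532 to 1823 lower, and 494 to 647 higher and 798 to 895 lower for 9 against 3 h. Without single libraries the 2-fold threshold was missed by *Samhd1* (0.998 without WT 0 h replicate 1, 0.98 without replicate 2), *Alox5* (−0.96 without WT 0 h replicate 2) and *Idh1* (−0.92 without WT 0 h replicate 3, −0.98 without WT 9 h replicate 1). The same held for *Cdc20* (−0.86 without WT 0 h replicate 2, −0.82 without WT 9 h replicate 3), *Mvd* (−0.93 and −0.83), *Gapdh* (0.94), *Kit* (−0.99), *Clec7a* (−0.96) and *Ly6g* (0.88), while *Cenpe* (1.01 to 1.25) and *Ccl6* (−1.02 and −1.05) became called. On deposited FPKM with 0.1 added, the lfc of *Dscam* (−0.39), *March1* (−0.36), *Mrc1* (−0.90), *Marco* (0.56) and *Myd88* (0.998) also fell below 2-fold.

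The replicate number gave no sign of pairing the 0 and 9 h libraries. Deviations of libraries of the same number correlated at −0.036, 0.133 and 0.152. All pairs ranged from −0.259 to 0.199, and not every library correlated best with its own number. With 3 libraries in each group these values cannot exclude a shared animal, culture or day. The 3 h libraries were not compared in this way. In the fit with the replicate block, 1422 rises and 1677 falls were called against untreated cells and 545 rises and 913 falls against 3 h, and all 207 genes kept their call.

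Depth limits the genes with few reads: below a mean of 10 normalized reads nothing was tested, and without that filter 1697 were higher and 2091 lower.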

Other observations

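Within the mitosis list, 1 gene peaked early and 2 genes peaked at 6 h. *Mki67*, the gene of the proliferation antigen Ki-67, was at 1571, 1352 and 1352 normalized reads at 0 h, 6148, 6294 and 6096 at 3 h, at 910, 772 and 644 at 6 h and at 693, 474 and 577 at 9 h. The 3 h libraries were above all others and the 9 h libraries below all untreated ones (lfc against untreated −1.31, SE 0.14, limma padj 7.04e-06). The centromere motor gene *Cenpe* was at 130, 87.9 and 112 at 0 h, at 647, 484 and 481 at 6 h and at 226, 150 and 297 at 9 h. The spindle assembly factor gene *Tpx2* was at 222, 176 and 190, 670, 511 and 585, and 318, 382 and 297. Both remained above all untreated libraries at 9 h and below the 2-fold threshold (lfc 0.99 and 0.76). *Cenpe* was called higher without WT 0 h replicate 1 (1.12), WT 0 h replicate 3 (1.01) or WT 9 h replicate 2 (1.25), and with quantile normalization (1.14). The cause of these courses was not tested.

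The T cell co-receptor gene *Cd8a*, which some dendritic cells also express, was the only tested B, T and NK cell marker that passed both thresholds. It was at 74.7, 91.3 and 92.5 at 0 h, at 73.2, 66.0 and 64.2 at 3 h and at 212, 222 and 191 at 9 h, so that it rose after 3 h (lfc 1.61, limma padj 6.73e-05). Against untreated cells its lfc was 1.27 (limma padj 1.76e-05), or 0.68 after scaling to the library total.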
